A study of Arabidopsis thaliana with 6 samples.

Results

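COR15 proteins and dehydrins are small hydrophilic proteins that plant cells accumulate when water is withdrawn by cold, drought or salt. They belong to the late embryogenesis abundant (LEA) proteins, a group first known from maturing seeds. The COR15 proteins enter the chloroplast stroma, where they stabilise membranes during freezing, while dehydrins carry lysine-rich K-segments that can bind membranes. In the cold, CBF transcription factors bind the promoters of several of these genes, and abscisic acid induces many of them. The genes described here were taken by locus: COR15A, COR15B, COR47, LTI30, ERD14, HIRD11 and the dehydrin genes AT4G38410, AT4G39130 and AT2G21490. A gene was used where the platform annotation listed a probe set with that gene alone. This held for 8 of the 9 genes, each with 1 probe set, among 13286 loci that some probe set named alone and 22746 probe sets tested. ERD14 had no such probe set in the annotation used and was not analysed here.

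Transcripts were measured on Affymetrix ATH1 arrays in whole Arabidopsis thaliana seedlings of the accession Wassilevskija, 3 arrays of the wild type and 3 of the atr8 mutant, which is affected in the long non-coding RNA AtR8. Seedlings of both genotypes were grown at 20 °C with 16 h of light and 8 h of dark, placed in air-purged water for 6 h when 10 days old, and then kept on agar medium for 22 h. No array came from cold-treated or unstressed seedlings, so the values below are levels in recovering seedlings, and neither cold nor the stress as such is compared. The series calls the arrays of a genotype biological replicates and speaks of atr8 mutant lines, without saying which line each array came from.

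Whole seedlings contain shoot and root, and fewer cells of a type cannot be told apart from less RNA per cell in such samples. All 4 measured shoot markers of 10 listed, which are photosynthesis genes, stood lower in atr8 without overlap between the genotypes. The same held for 11.0% of all probe sets and 14.1% of those with a mean intensity of at least 100. The summed intensity of the 4 shoot markers ran from 70068 to 71769 in the wild type and from 35737 to 43234 in atr8. The 2 measured root markers of 7 listed, both root hair expansins, summed to 853.6 to 925.4 and to 419.1 to 767.6. EXPA7 did not overlap between the genotypes, but EXPA18 did. The median log2 difference of these root markers was −0.26 on atr8 replicate 1 against −0.74 over all atr8 arrays. None of the 6 listed seed markers had a probe set naming it alone, so seed material was not checked. In the actin control the signal at the 3′ end over that at the 5′ end lay between 2.17 and 2.66 in the wild type and at 2.13 in atr8 replicate 1, but reached 28.9 in atr8 replicate 2 and 19.6 in atr8 replicate 3. The part of these shifts in the results below was not tested. Values of atr8 replicate 1 alone, which had no raised actin ratio, are given beside them. Both 3′ to 5′ ratios of the GAPDH controls lay above the wild type on that array. They were 1.51 against 1.35 to 1.44, and 0.996 against 0.794 to 0.844. The shoot markers were lower on that array too, with a median log2 difference of −0.83 against −0.95 over all atr8 arrays, so its values do not set that shift aside.

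COR15A was lower in all 3 atr8 arrays than in any wild-type array. It encodes a cryoprotective protein of the chloroplast stroma and is a classical target of the CBF factors. Its intensity, on the linear scale of the deposited values, was 625.6, 797.8 and 674.3 in wild-type replicates 1, 2 and 3. In atr8 it was 291.8, 166.5 and 149.9. The wild-type arrays lay close together, and within atr8 replicate 1 stood above the other two. The means were 699.2 ± 88.8 (SD, n = 3) in the wild type and 202.7 ± 77.6 (SD, n = 3) in atr8. The intensity + 16 was 3.38-fold higher in the wild type, a log2 difference of −1.76 ± 0.29 (SE, 95% interval −2.48 to −1.04). The adjusted p was 0.0729 by limma with Benjamini-Hochberg adjustment over all probe sets, so the difference did not pass the threshold of 0.05. Its unadjusted p was 0.000987, where the largest unadjusted p that passed was 0.000459. Of all tested probe sets, 0.708% had a difference as low or lower. Whether COR15A passed depended on the setting. It passed in 5 of 17 other settings, among them without atr8 replicate 1, at −2.03 (adjusted p = 0.0419), and with a prior variance that was robust and followed intensity (adjusted p = 4.06e-05). Without any other single array its adjusted p lay between 0.161 and 0.215. Atr8 replicate 1 alone stood at a log2 difference of −1.21 from the mean of the wild type, so the direction did not rest on replicates 2 and 3.

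COR15B, the neighbouring coding gene of COR15A on chromosome 2, encodes a closely related stromal protein. Its wild-type intensities were 821.1, 719.0 and 798.0, and its atr8 intensities were 438.1, 674.6 and 612.7. The genotypes did not overlap, but the highest atr8 array came near the lowest wild-type array. Here atr8 replicate 1 was the lowest of the mutant arrays, the reverse of its place for COR15A. The log2 difference was −0.45 ± 0.23 (SE, 95% interval −1.01 to 0.12), with an adjusted p of 0.445 by limma. Relative to the mean of the wild type, atr8 replicate 1 stood at −0.81 on the log2 scale, and replicates 2 and 3 at −0.20 and −0.34.

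**Figure D1:**
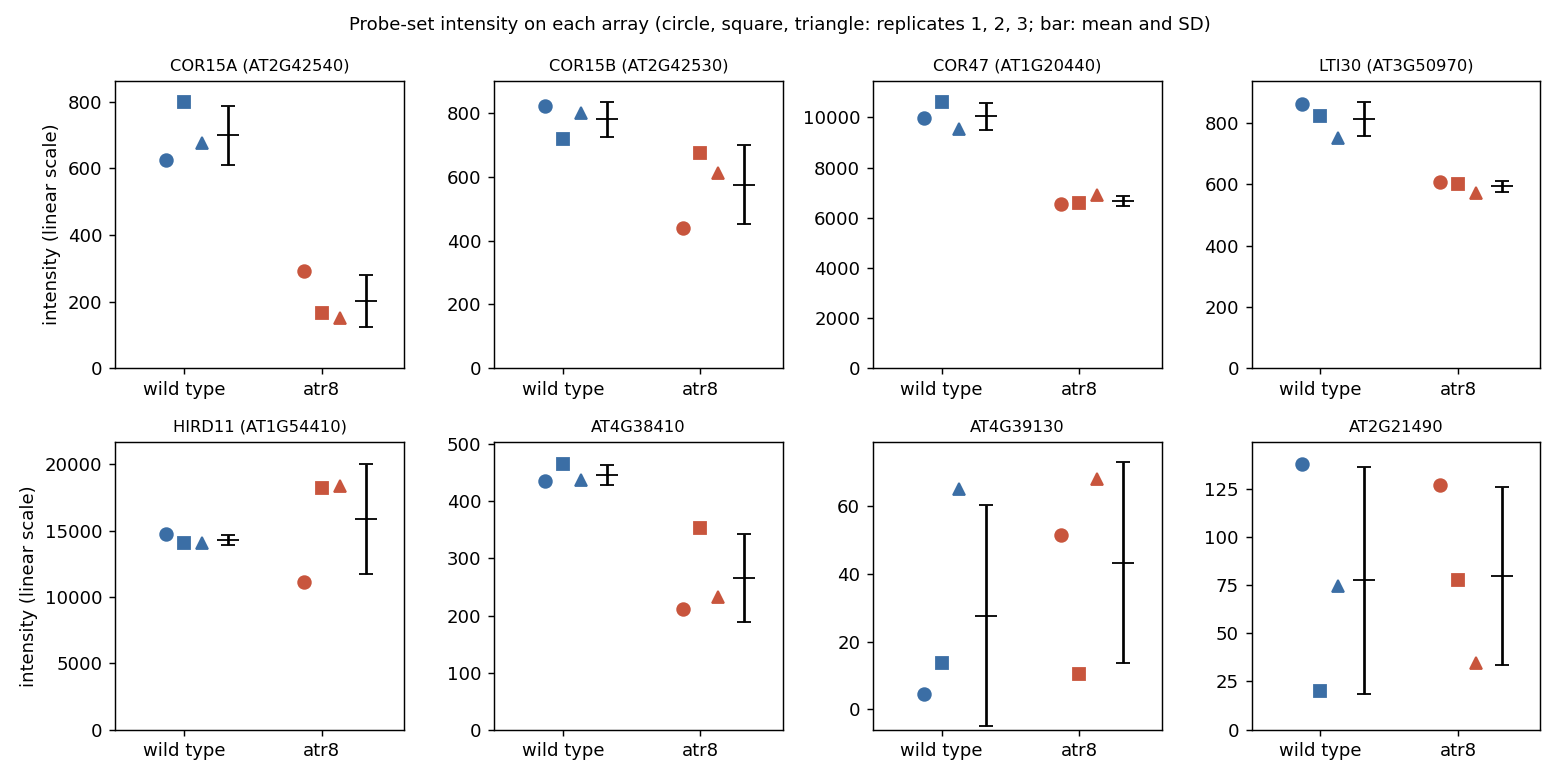
Intensity on the linear scale (vertical axis) of the 8 genes on each wild-type (blue) and atr8 (red) array, with circles, squares and triangles for replicates 1, 2 and 3 and a bar for the mean ± SD. COR15A, COR15B, COR47, LTI30 and AT4G38410 show no overlap between genotypes, and COR15A has the widest gap relative to its level.

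The pair was set side by side within each array to ask whether the genotypes differed in both genes by the same amount. COR15A minus COR15B, in log2(intensity + 16), was −0.38, 0.15 and −0.24 in the wild type and −0.56, −1.92 and −1.92 in atr8. All atr8 values lay below all wild-type values, though atr8 replicate 1 lay close to them. The mean of atr8 minus that of the wild type was −1.31 (−0.16 ± 0.27 against −1.47 ± 0.79, SD, n = 3 each; two-sided exact permutation test, p = 0.1, the smallest p that 3 against 3 arrays allow). With atr8 replicate 1 as the only mutant array the mean difference was −0.40, and without it −1.76. The larger separation of the pair was thus measured on the same arrays that had the raised actin ratio of 28.9 and 19.6. These are values of 1 probe set per gene, and their absolute levels are not comparable between genes.

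**Figure D2:**
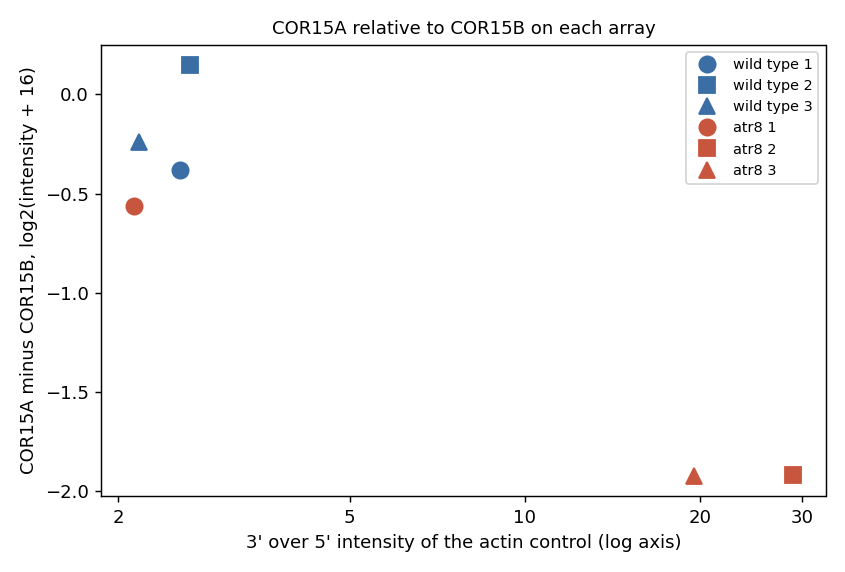
COR15A minus COR15B in log2(intensity + 16) on each array (vertical axis) against the ratio of 3′ to 5′ intensity of the actin control (horizontal log axis), wild type in blue and atr8 in red. Atr8 replicates 2 and 3 lie at −1.92 with ratios of 28.9 and 19.6, and the other 4 arrays lie from −0.56 to 0.15 with ratios of 2.13 to 2.66.

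Of the dehydrins, COR47 and LTI30 differed by nearly the same amount on every atr8 array. COR47 is an acidic dehydrin with a serine stretch and lies next to the dehydrin gene ERD10 on chromosome 1. Its intensities were 9994, 10606 and 9550 in the wild type and 6553, 6571 and 6905 in atr8. The lowest wild-type array stood well above the highest atr8 array. The log2 difference was −0.59 ± 0.17 (SE, 95% interval −1.02 to −0.16), with an adjusted p of 0.231 by limma. The log2 differences of the 3 atr8 arrays from the mean of the wild type were −0.61, −0.61 and −0.54. COR47 passed in 1 of 17 other settings, the robust prior following intensity (adjusted p = 0.000993).

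LTI30, also called XERO2, encodes a dehydrin made mainly of K-segments that binds membranes, and it lies next to XERO1 on chromosome 3. Its intensities were 863.1, 822.0 and 753.2 in the wild type and 607.9, 601.5 and 573.7 in atr8. The groups did not overlap, and the atr8 arrays differed little among themselves. The log2 difference was −0.44 ± 0.18 (SE, 95% interval −0.87 to −0.01), with an adjusted p of 0.351 by limma, and LTI30 passed in 0 of 17 other settings. Taken singly, atr8 replicate 1 stood at −0.41 and replicates 2 and 3 at −0.42 and −0.49. For COR47 and LTI30 the difference on the array without a raised actin ratio was thus close to that on the arrays with one.

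AT4G38410, a dehydrin gene without a symbol in the annotation used, read 435.5, 466.1 and 437.7 in the wild type and 212.0, 354.3 and 232.1 in atr8. All atr8 arrays lay below the wild type, and replicate 2 was the nearest to it. The log2 difference was −0.75 ± 0.25 (SE, 95% interval −1.35 to −0.14), with an adjusted p of 0.27 by limma. Atr8 replicate 1 was the lowest of the mutant arrays, as for COR15B, with a log2 difference of −1.02.

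HIRD11 encodes a small dehydrin that binds heavy metals. It read 14705, 14054 and 14075 in the wild type, with a spread of 370.0 (SD, n = 3). In atr8 it read 11105, 18182 and 18393. The wild-type arrays lay together between the mutant arrays, with atr8 replicate 1 below all of them and replicates 2 and 3 above all of them. The mean log2 difference of 0.12 ± 0.26 (SE, 95% interval −0.52 to 0.75, limma adjusted p = 0.872) thus averaged −0.36 on atr8 replicate 1 with 0.35 and 0.37 on replicates 2 and 3. The replicates that differed in sign are those that differed in the actin ratio.

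**Figure D3:**
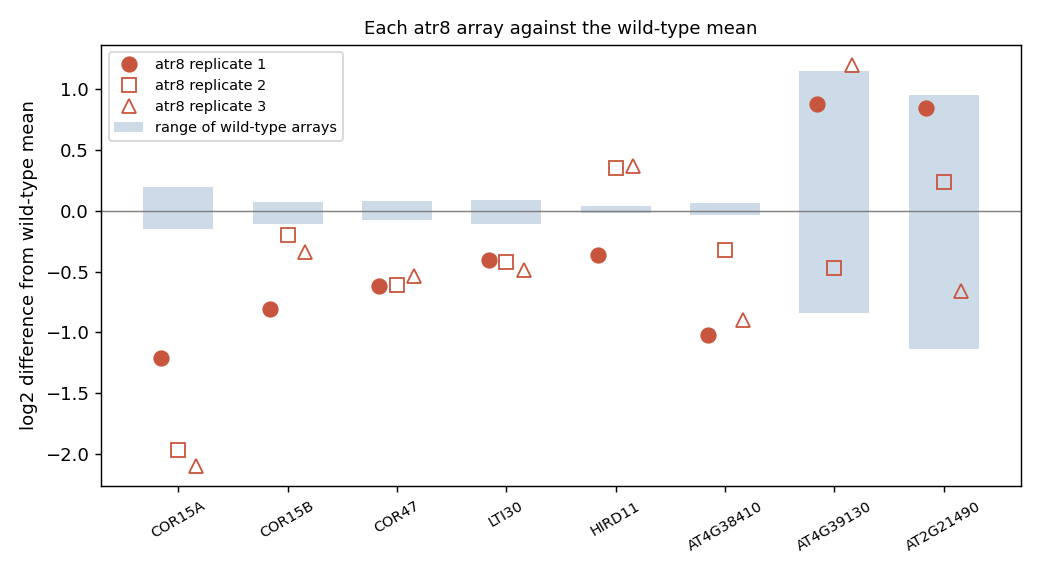
Log2 difference of each atr8 array from the wild-type mean (vertical axis) for the 8 genes, with replicate 1 as a filled circle, replicates 2 and 3 as open symbols and the range of the wild-type arrays as a blue band. The replicates coincide for COR47 and LTI30, and replicate 1 parts from the others for COR15A, COR15B and HIRD11.

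AT4G39130 and AT2G21490, the remaining dehydrin genes, had dim probe sets below the array median of 192.9. AT4G39130 read 4.41, 13.6 and 64.9 in the wild type and 51.3, 10.4 and 68.0 in atr8. AT2G21490, annotated as dehydrin LEA, read 137.9, 20.3 and 74.2 in the wild type and 126.6, 77.6 and 34.4 in atr8. In both genes the genotypes overlapped, and arrays of 1 genotype differed among themselves by more than the genotype means. Their log2 differences were 0.54 with a 95% interval of −1.08 to 2.16 and 0.14 with an interval of −1.41 to 1.69, so a difference of the size seen for COR47 was not detectable here.

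**Figure D4:**
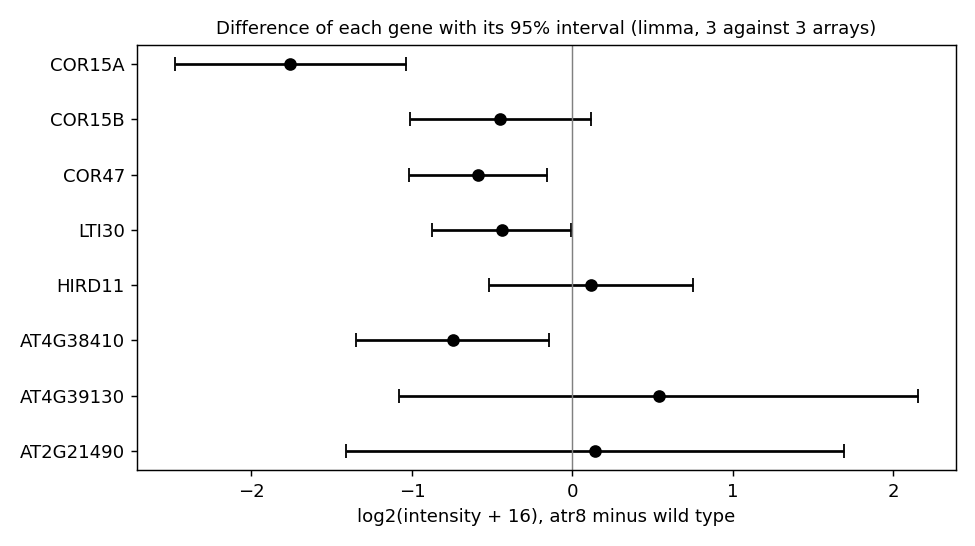
Difference of atr8 minus wild type in log2(intensity + 16) (horizontal axis) for the 8 genes, with 95% intervals from limma over 3 against 3 arrays. The intervals of COR15A, COR47, LTI30 and AT4G38410 lie below 0, before any adjustment for the number of probe sets, and those of the other genes span it.

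Across the 8 genes, 0 passed the adjusted threshold by limma, where 0.919% of all tested probe sets did. At an unadjusted p under 0.05, 4 of the 8 were lower, against 6.92% of all probe sets, and 0 were higher, against 7.11%. In 5 of the 8 all atr8 arrays lay below all wild-type arrays, against 11.0% of all probe sets and 14.1% of those with a mean intensity of at least 100. The median log2 difference of the 8 genes was −0.44, beside −0.01 over all tested probe sets. On atr8 replicate 1 alone it was −0.51, beside −0.02. The genes were chosen with earlier results of these data known, so these counts describe them and are no test of the family.

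The other LEA genes had a median close to that of all probe sets. Of 42 listed, 27 were measured, and only 4 of these had a mean intensity of at least 100. By limma 0 of the 27 passed, against 0.919% of all probe sets, and the median log2 difference was −0.02. At an unadjusted p under 0.05, 2 were lower, against 6.92% of all probe sets, and 0 were higher, against 7.11%. The 2 with the smallest p were AT3G02480, at −2.10 ± 0.45 (SE, adjusted p = 0.127), and AT5G44310, at −1.77 ± 0.41 (SE, adjusted p = 0.148). AT3G02480 read 194.9, 70.2 and 51.3 in the wild type and 8.42, 12.1 and 6.48 in atr8, and AT5G44310 read 34.8, 122.6 and 43.8 against 5.74, 7.31 and 4.80. In both genes the genotypes were apart, but at intensities where the size of the difference depends on the 16 added. With 1 added the differences were −3.21 and −3.08, and with 64 added −1.12 and −0.85. The 4 brighter LEA genes, AT2G23120, AT2G44060, AT2G46140 and the drought-induced DI21, had differences from −0.16 to 0.11. The dehydrin genes ERD10, RAB18 and XERO1 had no probe set naming them alone.

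**Figure D5:**
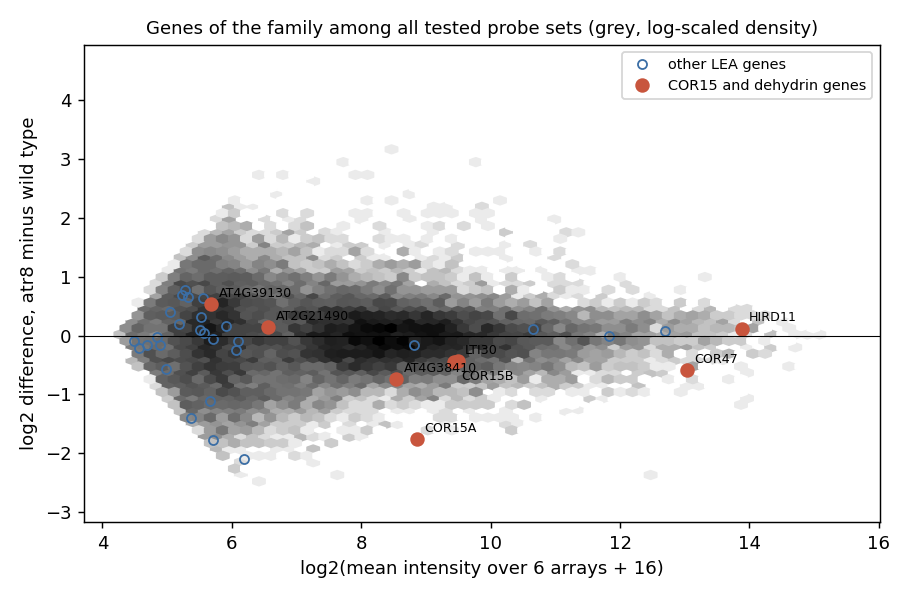
Log2 difference of atr8 minus wild type (vertical axis) against log2 of the mean intensity + 16 (horizontal axis), with the 8 COR15 and dehydrin genes in red, 27 other LEA genes as blue rings and all 22746 tested probe sets as grey density. COR15A lies at the lower edge of the cloud at its brightness, and most other LEA genes lie at the dim end.

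Only 4 of 40 listed cold-signalling genes were measured, and no CBF gene was among them. By limma 0 of the 4 passed, and their median log2 difference was 0.12. At an unadjusted p under 0.05, 1 was lower and 1 higher, against 6.92% and 7.11% of all probe sets. GI, which encodes the clock protein GIGANTEA with a part in freezing tolerance, read 1131, 1036 and 971.5 in the wild type and 733.0, 562.2 and 552.9 in atr8 (log2 difference −0.76 ± 0.21, SE, adjusted p = 0.198). STZ, a zinc finger repressor induced by cold and many stresses, read 552.9, 509.8 and 556.6 against 1989, 822.7 and 850.5 (1.03 ± 0.38, SE, adjusted p = 0.315; 0.62 without atr8 replicate 1). Neither gene overlapped between the genotypes, and they lay in opposite directions. Of 33 other cold-regulated genes 2 were measured, COR27 at −0.13 ± 0.35 and AT4G33980 at 0.08 ± 0.22 (SE), with adjusted p of 0.901 and 0.899 by limma. In both genes the arrays of the genotypes overlapped. None of the 35 listed abscisic acid genes had a probe set naming it alone.

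The genes whose levels followed COR15A most closely over the 6 arrays were sought among 7831 other probe sets with 1 gene and a mean intensity of at least 100. By Pearson's r of log2(intensity + 16), the first 5 were RCA (0.998), the sugar transporter gene SWEET10 (0.998), AT1G72810 (0.996), AT1G11860 (0.996) and ALDH11A3 (0.995). RCA, which encodes Rubisco activase and is among the shoot markers, read 30822, 33207 and 31978 in the wild type and 21655, 16147 and 16016 in atr8. It repeated the order of COR15A within atr8, with replicate 1 above replicates 2 and 3. With 6 arrays in 2 genotypes such values are easily high, and 154 of the probe sets reached 0.95. Within the family, r with COR15A was 0.933 for LTI30, 0.930 for COR47, 0.749 for AT4G38410 and 0.525 for COR15B. It was −0.519 for HIRD11, and −0.268 and −0.023 for the dim AT4G39130 and AT2G21490. All these values are over the same 6 arrays and the same genotype contrast.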

How the data were processed

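The authors deposited 1 linear intensity for each probe set on each array. The sorted intensities of the 6 arrays were identical, so the authors' table had been quantile normalized. The summarization software is not given in the sources used here. No detection calls were used. Precision is limited by the number of arrays.

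Of 22810 probe sets, 64 controls were left out. In the platform annotation 13513 probe sets had 1 gene, 503 had several, and 8730 were unnamed here. Of those with 1 gene, 13436 matched RefSeq TAIR10.1, used for names and gene order only. In lists the brightest probe set stood for a gene.

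Log2(intensity + 16) was fitted with limma 3.58.1 in R 4.3.3 (lmFit, eBayes, genotype as the only term), with Benjamini-Hochberg adjustment over all 22746 probe sets. Differences on this scale understate changes of dim genes. The fit was tested on simulated data with independent noise of equal spread on every array. The raised 3′ to 5′ ratios of 2 atr8 arrays were not simulated. Genes and lists were chosen with earlier results of these data known. All 8 genes are named, the 2 smallest p of each other list but the shoot and root markers (given as sums), the 5 probe sets most like COR15A by r, and 4 brighter LEA genes chosen after their values were seen. Same-numbered deviations correlated at 0.005 to 0.014 over all tested probe sets. This gave no sign that replicate numbers pair the samples, but does not exclude it.

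Alternatives were a replicate block, quantile normalization, cyclic loess, median centring, the dimmest 30% left out, a robust prior following intensity, array weights, 1 or 64 added, each array left out, atr8 replicate 1 alone and the mean of a gene's probe sets.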

Additional observations from a re-analysis of the deposited data

Results flagged for a closer look

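The control probe sets, which were not compared between genotypes, stood out on 2 arrays. The 3′ to 5′ ratio of the actin control was 28.87 in atr8 replicate 2 and 19.55 in atr8 replicate 3. The wild-type arrays lay lower, at 2.17 to 2.66. Both GAPDH ratios lay above the wild type on atr8 replicate 1 and were highest on those 2 atr8 arrays. Among the COR15 and dehydrin genes, COR15A, COR15B and HIRD11 read differently on these arrays than on atr8 replicate 1, and so did STZ, GI and RCA outside the family.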

How the results depend on the processing

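COR15A, COR15B, COR47, LTI30 and AT4G38410 were lower in atr8 in all 17 other settings. As the genotypes did not overlap in these genes, leaving arrays out could not turn their direction. The replicate block, the robust prior, leaving out the dimmest 30% and the probe-set mean left their estimates unchanged. COR15A ranged from −2.03 to −1.21 and passed in 5 of the 17. Among the 17, quantile normalization, median centring and the probe-set mean could hardly move any of the 8 genes. The deposited values were already quantile normalized, and each of the 8 genes had 1 probe set. The count of the 8 genes past the threshold was 1 with the dimmest 30% left out, with array weights and with 64 added (COR15A each time), 2 with the robust prior following intensity (COR15A and COR47), and 0 to 1 with an array left out, the 1 being COR15A without atr8 replicate 1. With that prior 2 other list genes also passed, GI and STZ. The count over all probe sets, 209, became 0 with the replicate block (2769 at an unadjusted p under 0.05; COR15A adjusted p = 0.279), 371 without the dimmest 30%, 1459 with that prior, 99 with 1 added, 336 with 64 added, 0 with atr8 replicate 1 alone (2194 unadjusted) and 0 to 314 with an array left out, where only leaving out atr8 replicate 1 gave calls (the others 2443 to 2594 unadjusted). COR15A minus COR15B stayed negative wherever it was computed. All its atr8 values lay below all its wild-type values, so leaving arrays out could not turn it. It was not recomputed with the block, the robust prior or array weights, which do not enter its test. Directions turned only for genes far from the threshold: with an array left out, HIRD11 ran from −0.0066 (without atr8 replicate 3) to 0.36, AT2G21490 from −0.43 (without wild-type replicate 2; −0.21 without atr8 replicate 1) to 0.62, COR27 from −0.43 to 0.16 (without atr8 replicate 1) and AT4G33980 from −0.036 (without atr8 replicate 3) to 0.20. With array weights COR27 was 0.046, and with atr8 replicate 1 alone HIRD11 was −0.36 and AT4G33980 −0.10. The cause of these changes was not tested. AT4G39130 was not tested once the dimmest 30% were left out.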
